A study of Mus musculus with 48 samples.

Results

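Monocyte cultures of single mouse clones differed widely in Prg2, the gene of eosinophil major basic protein, and the cultures at both ends of that range are described here. The libraries were chosen by measured values: the 22 ranked monocyte libraries were ordered by their Prg2 TPM (a length-corrected abundance relative to the library total) separately within clones 1 to 13, where 12 were ranked, and within clones 15 to 26, where 10 were ranked. The monocyte libraries of clones 8 and 26 were not ranked. The 4 highest of each set formed the high Prg2 group (n = 8, clones 11, 7, 6 and 12 with clones 18, 24, 19 and 17), and the 4 lowest of each set formed the low Prg2 group (n = 8, clones 9, 10, 3 and 1 with clones 15, 22, 23 and 20). These 16 libraries belong to a series of 48, with 24 clones sequenced once as monocytes and once as progenitors.

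All groups are ER-Hoxb8 cells from mouse bone marrow, grown in RPMI medium with serum and stem cell factor. They are conditionally immortalised myeloid cells in which the homeobox factor Hoxb8, fused to the estrogen receptor, holds progenitors in a dividing state until its activity is lost. Both Prg2 groups, the monocytes and the progenitors alike, carry this fusion, and each library comes from 1 clone, so an immortalised line and not a fresh blood cell was measured. The labels name the progenitors as granulocyte-monocyte progenitors and pair them with monocytes of the same clone. No mouse strain, treatment time or second culture of a clone and state is given in the sources used here. The p-values below therefore rest on the spread between single libraries of different clones. Differences between clones, cultures and library preparations cannot be told apart in it.

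Eosinophils store cationic proteins in large granules. Major basic protein, made from Prg2, forms the granule core, its paralog is made from Prg3, and eosinophil peroxidase, made from Epx, lies in the matrix around the core. The genes are switched on while eosinophil precursors mature, and the factors GATA1, C/EBP and PU.1 are known to act on them. Basophils, which arise from related precursors, can make major basic protein too. In bulk libraries such as these, more cells of a type and more RNA per cell cannot be told apart.

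The promoters of the 2 genes that stood closest to Prg2 are shown because the text turns on Prg3 and Epx. Both run 5′ to 3′ over the 250 bases before the RefSeq start (build GRCm38.p6), Prg3 at chr2:84987965-84988214 on the plus strand and Epx at chr11:87875537-87875786 on the minus strand. Capitals mark GATA matches on either strand. The letters searched were AGATAA, then the variant form AGATAG, and as a further pair of forms TGATAA together with the variant form TGATAG.
Prg3: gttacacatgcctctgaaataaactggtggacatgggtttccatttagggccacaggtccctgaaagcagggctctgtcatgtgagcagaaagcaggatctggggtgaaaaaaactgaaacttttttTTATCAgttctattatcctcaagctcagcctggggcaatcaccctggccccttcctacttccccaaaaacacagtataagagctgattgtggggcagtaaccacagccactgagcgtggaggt
Epx: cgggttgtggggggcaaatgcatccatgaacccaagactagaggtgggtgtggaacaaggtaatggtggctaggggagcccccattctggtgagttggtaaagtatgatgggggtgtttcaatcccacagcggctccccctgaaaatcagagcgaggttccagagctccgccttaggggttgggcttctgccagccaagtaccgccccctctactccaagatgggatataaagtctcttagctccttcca
The Prg3 window held 1 GATA match, TTATCA on the opposite strand at -123 to -118 from the start and overlapping no other match, and the Epx window held none of these letters. Neither window held the C/EBP letters TTGCNNAA or the PU.1 letters GAGGAA, read on both strands. Of 32851 RefSeq promoters of the same length, 26.5% held a GATA match, 9.56% the C/EBP letters and 23.3% the PU.1 letters. A match describes the letters and is no measured site.

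Prg2 itself chose the groups, so its values are a description without a test. In clones 1 to 13 the high libraries had 943 TPM (clone 11), 284 (clone 7), 277 (clone 6) and 179 TPM (clone 12), against 67.6 (clone 9), 60.8 (clone 10), 35.6 (clone 3) and 35.4 TPM (clone 1) in the low libraries. In clones 15 to 26 the high libraries had 1053 TPM (clone 18), 907 (clone 24), 793 (clone 19) and 240 TPM (clone 17), against 37.8 (clone 15), 35.9 (clone 22), 35.8 (clone 23) and 0.249 TPM (clone 20) in the low libraries. Over both sets Prg2 averaged 584 ± 371 TPM in the high group and 38.6 ± 20.1 TPM in the low group (SD, n = 8 each). Clone 20 lay far below the other low libraries, which held at least 35.4 TPM. The libraries next to the limits were clone 12 at 179 TPM inside and clone 13 at 131 TPM outside the high group, and clone 17 at 240 and clone 16 at 192 TPM in the second set. At the lower limits clone 9 at 67.6 TPM lay inside and clone 5 at 78.7 TPM outside, and clone 15 at 37.8 and clone 21 at 129 TPM in the second set. The limit in clones 1 to 13 therefore cuts a gradual slope, whereas a wider gap lies above the low libraries of clones 15 to 26. The unranked monocyte libraries had 378 TPM (clone 8) and 1.38 TPM (clone 26).

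**Figure D1:**
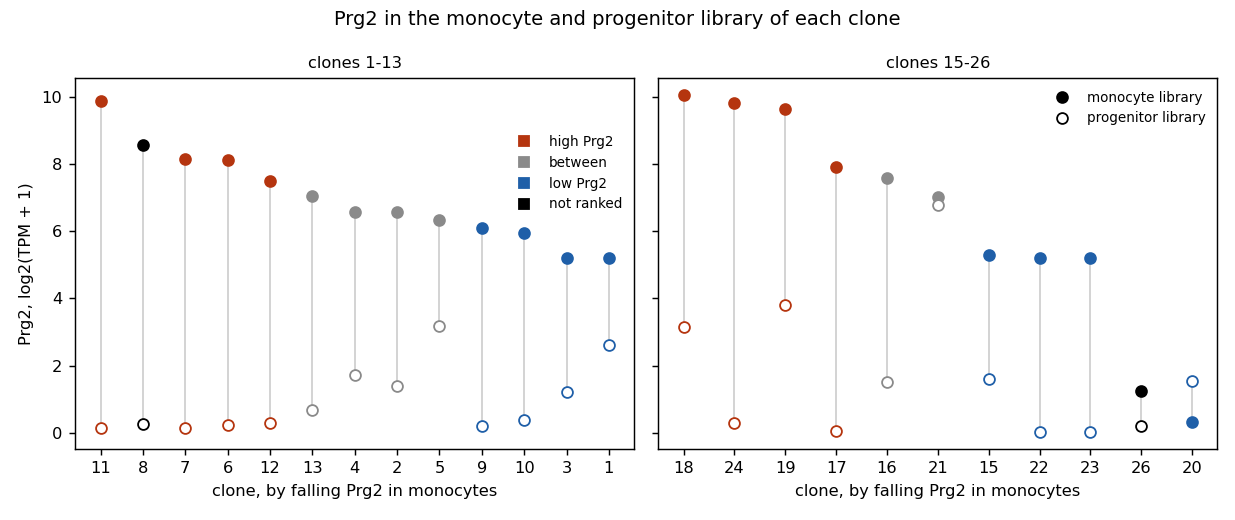
Prg2 level as log2(TPM + 1) in the monocyte (filled) and progenitor (open) library of each clone, ordered by falling monocyte level within clones 1 to 13 (left) and clones 15 to 26 (right), with the 8 high, 8 low, 6 intermediate and 2 unranked clones in colour. Monocyte levels run from 1053 TPM in clone 18 to 0.249 TPM in clone 20, and clone 20 is the 1 clone whose open circle lies above its filled one.

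No gene passed the test across all genes when high was compared with low Prg2 monocytes. Of 10787 genes with a mean of at least 1 TPM, Prg2 itself left out, limma with the set as covariate called 0 higher (0.0%) and 0 lower (0.0%) at a Benjamini-Hochberg adjusted p under 0.05, with 284 higher (2.63%) and 174 lower (1.61%) at an unadjusted p under 0.05. The smallest adjusted p-values belonged to the other 2 granule genes, Prg3 and Epx. The high and low groups did not overlap over the 16 libraries for 3 of the 10787 genes (0.0278%), which were Prg3, Epx and Rnase12, all higher in the high group, and for 0 genes in the lower direction (0.0%). Epx and Rnase12 reached a mean of 1 TPM only through the high group, so their place among the tested genes rests on that group. The median log2 fold change over all genes was -0.06.

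Prg3 encodes a paralog of major basic protein and was present at lower levels than Prg2. In clones 1 to 13 the high libraries had 41.1, 9.96, 9.64 and 6.55 TPM for clones 11, 7, 6 and 12, and the low libraries had 3.50, 1.66, 1.09 and 1.62 TPM for clones 9, 10, 3 and 1. In clones 15 to 26 the high libraries had 87.4, 82.7, 75.3 and 22.1 TPM for clones 18, 24, 19 and 17, against 2.94, 5.83 and 3.89 TPM in the low libraries of clones 15, 22 and 23, with clone 20 listed at 0. The groups did not overlap, and the order of the 8 high libraries by Prg3 was that by Prg2 within each set. The Prg3 log2 fold change was 3.22 (SE 0.49, limma p = 5.44e-06, adjusted p = 0.0586), on the log2(TPM + 1) scale, and missed the threshold. Within the sets the difference was 2.28 in clones 1 to 13 and 4.15 in clones 15 to 26.

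Epx, the gene of eosinophil peroxidase, was lower still. The high libraries of clones 1 to 13 held 10.3, 1.77, 2.43 and 1.23 TPM for clones 11, 7, 6 and 12, against 0.719, 0.678, 0.0741 and 0.710 TPM for the low clones 9, 10, 3 and 1. The high libraries of clones 15 to 26 held 14.5, 14.04, 7.76 and 6.47 TPM for clones 18, 24, 19 and 17, against 0.401, 0.135 and 0.0297 TPM for the low clones 15, 22 and 23, with clone 20 listed at 0. No low library reached 1 TPM and every high library exceeded it. Epx thus passed the filter of a mean of at least 1 TPM through the high group alone, which limits what its p-value can show. Without the filter 0 of 23337 genes were called, with a smallest adjusted p of 0.387 (limma). The Epx log2 fold change was 2.34 (SE 0.38, limma p = 1.11e-05, adjusted p = 0.0597) and likewise missed the threshold, with within-set differences of 1.38 in clones 1 to 13 and 3.30 in clones 15 to 26. Because both genes lie near the pseudocount of 1 TPM in the low group, these fold changes understate the change.

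Both adjusted p-values sat close to the threshold, and small changes in the libraries used moved them across it. Prg3 and Epx passed together without clone 7 (smallest adjusted p = 0.0421) and without clone 12 (0.0177), Prg3 alone passed without clone 20 (0.0385), and neither passed without any 1 of the other 13 clones. With Prg2 taken as a number over all 22 ranked libraries, Prg3 passed with an adjusted p of 7.56e-10 and Epx with 0.000238 (limma). In that fit 4 genes passed, and of 10786 genes 1034 were higher and 1809 lower at an unadjusted p under 0.05. The main fit had 284 higher and 174 lower of 10787, so far more of all genes reached that level with Prg2 as a number. Clone 20, at 0.249 TPM, lay far below the other ranked libraries, which held at least 35.4 TPM of Prg2. It therefore had a large weight in the fit with Prg2 as a number, which was not repeated without clone 20. Reads that fit several genes can tie levels together, and Prg2, Prg3 and Epx shared 0 of their 808, 973 and 2706 words of 31 bases with any other gene of the GENCODE M21 transcripts.

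The other granule and ribonuclease genes of eosinophils were near or at 0. Of 9 further genes of that list in the table, 2, Prg3 and Epx, passed the filter of a mean of at least 1 TPM. Ear6, an eosinophil-associated ribonuclease, had a lowest, median and highest value of 0, 0.618 and 2.20 TPM in the high group, against 0, 0.0125 and 0.102 TPM in the low group. Clone 11 was highest and clone 17, a high library listed at 0, made the groups overlap. Ear1 averaged 0.137 ± 0.146 TPM in the high group and 0.00585 ± 0.0165 TPM in the low group (SD, n = 8 each), and Ear2 0.943 ± 0.548 TPM in the high group and 0.982 ± 1.19 TPM in the low group. Rnase2a, Rnase2b, Ear10 and Ear14 stayed at or below 0.441 TPM in the 16 libraries, and Ear14 was listed at 0 in each. The Ear genes are near-identical copies among which reads may be divided, so their single values are uncertain.

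A pair of genes outside that list also separated the groups. Rnase12, a member of the ribonuclease A family, ran from 0.322 over a median of 1.31 to 14.9 TPM in the high group, against 0, 0.0669 and 0.201 TPM in the low group. Clone 19 was the highest by far, and the log2 fold change was 1.40 (SE 0.38, limma p = 0.00198, adjusted p = 0.777). Like Epx, Rnase12 passed the filter through the high group alone. Alox15, the 12/15-lipoxygenase of eosinophils and macrophages, lay below the filter and had no test. Its values were 0.350, 0.884 and 7.32 TPM in the high group, against 0.0331, 0.0972 and 0.271 TPM in the low group, again without overlap and with clone 19 on top. How many genes below the filter separate the groups in this way was not counted, so for Alox15 this is a description.

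**Figure D2:**
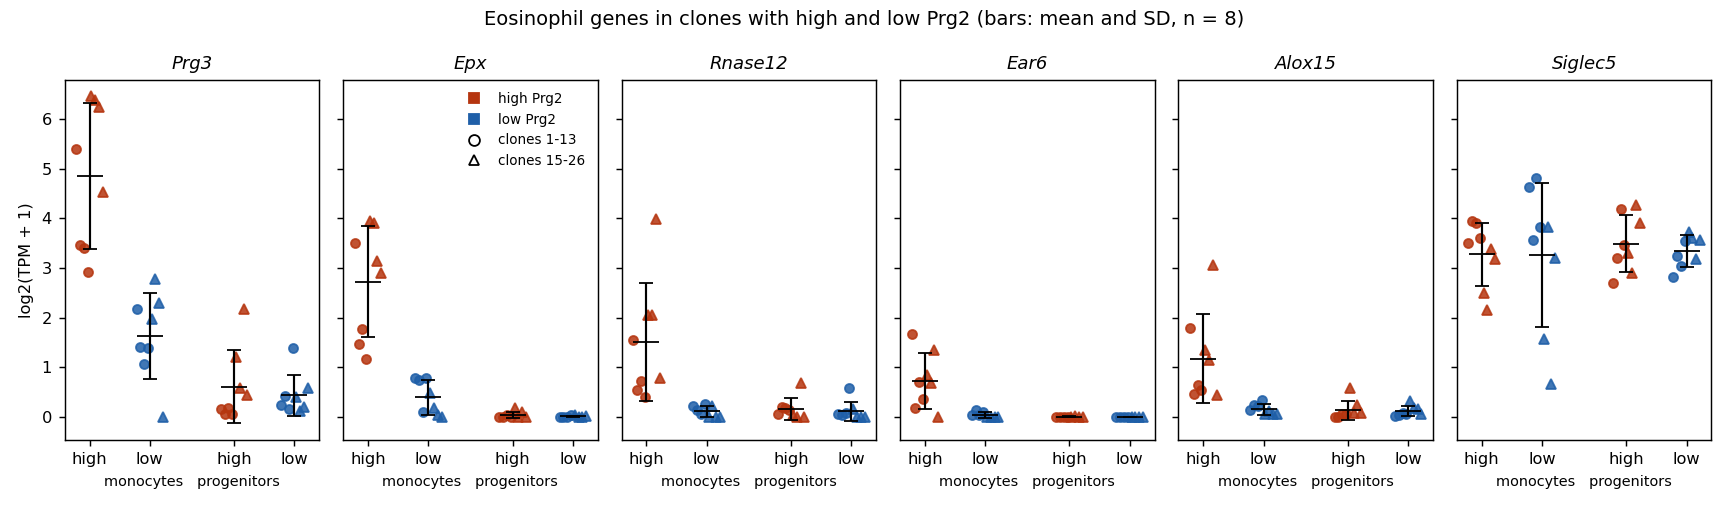
Levels of 6 genes as log2(TPM + 1) in the monocyte and progenitor libraries of the 8 high and 8 low Prg2 clones, circles for clones 1 to 13, triangles for clones 15 to 26, bars for mean and SD of each group. Prg3, Epx, Rnase12 and Alox15, the last below the filter and untested, do not overlap between the groups in monocytes, whereas Siglec5 does. In progenitors Epx lies near 0 in both groups, whereas Prg3 reaches further up in some libraries of either group.

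The 8 monocyte libraries outside both groups, the 6 intermediate ones with clones 8 and 26, took no part in the contrast and show the same pairing of levels. Across them Prg3 and Prg2 on the log2(TPM + 1) scale had a Pearson r of 0.855 (exact permutation p = 9.92e-05, 0.000265 adjusted over 8 relations) and a Spearman rho of 0.952 (exact permutation p = 0.00114, adjusted 0.00304), two-sided. Without the 2 libraries farthest from the median of Prg2, r was 0.975. For Epx the Pearson r was 0.770 (exact permutation p = 0.00511, adjusted 0.0102) and rho was 0.667 (exact permutation p = 0.0831, adjusted 0.166). Without the same 2 libraries the Epx r was 0.550, so that relation rests on those libraries. Mcpt8, a basophil protease, had an r of 0.657 with Prg2 in these libraries (exact permutation p = 0.0588, adjusted 0.0941) and a rho of 0.595 (exact permutation p = 0.132), with an r of 0.277 without those 2 libraries. Cpa3, the mast cell carboxypeptidase, had an r of 0.622 (exact permutation p = 0.0981, adjusted 0.131) and a rho of 0.476 (exact permutation p = 0.243), with an r of 0.347 without them. Each set holds too few of these libraries for a value of its own. These relations were chosen after the data were seen.

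Progenitor libraries were not used to choose the groups either, and Prg3 and Epx varied with Prg2 there. Over all 24 progenitor libraries Prg3 and Prg2 had an r of 0.940 (permutation p = 1e-05, the smallest that 100000 permutations give, adjusted 4e-05) and a rho of 0.723 (permutation p = 0.00011), and r was 0.820 without the 2 farthest libraries. Within the sets it was 0.874 in clones 1 to 13 and 0.955 in clones 15 to 26. Epx gave an r of 0.752 (permutation p = 1e-05, adjusted 4e-05) and a rho of 0.803 (permutation p = 3e-05), with 0.663 without the 2 farthest, 0.576 in clones 1 to 13 and 0.824 in clones 15 to 26. Progenitor clone 21 held 109 TPM of Prg2, 14.3 TPM of Prg3 and 5.88 TPM of Epx, all the highest among progenitors, and no other progenitor library exceeded 0.134 TPM of Epx. For Mcpt8 r with Prg2 over the progenitors was -0.04 (permutation p = 0.848), and for Cpa3 it was -0.19 (permutation p = 0.357). Whether the relations of Prg3 and Epx differ from those of Mcpt8 and Cpa3 was not tested.

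**Figure D3:**
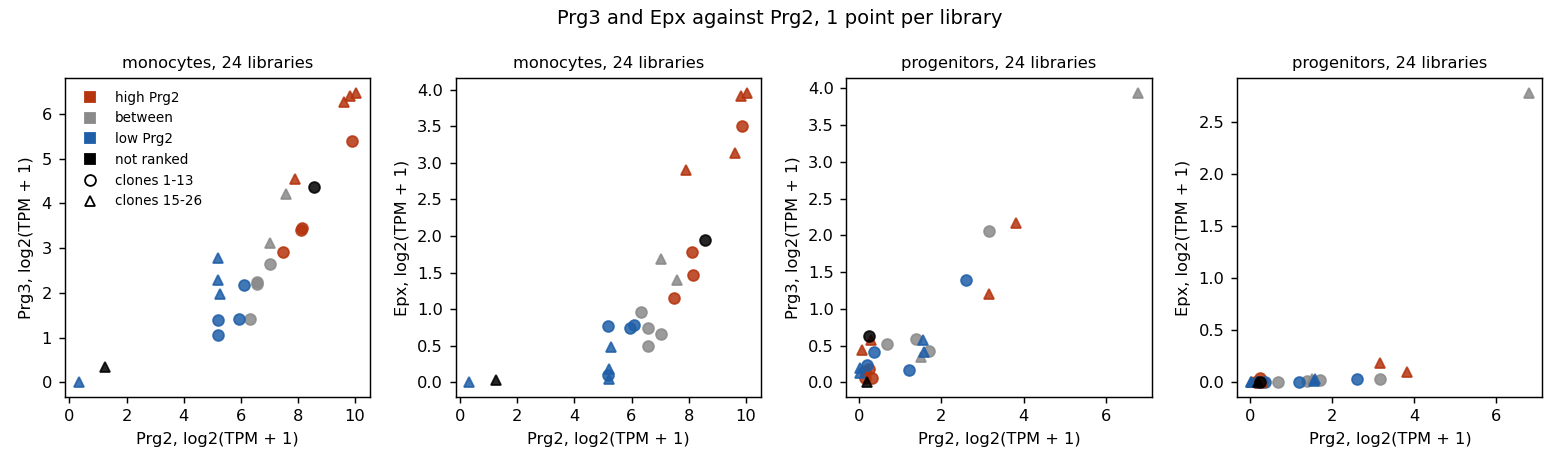
Prg3 and Epx against Prg2, both as log2(TPM + 1), with 1 point per library in 24 monocyte (left pair) and 24 progenitor libraries (right pair), coloured by Prg2 group in monocytes and shaped by set. Prg3 climbs with Prg2 among the grey and black libraries outside both groups (r = 0.855), and in progenitors 1 point, clone 21, stands far from the rest.

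Surface and lineage genes of eosinophils overlapped between the groups, apart from Alox15. Of 14 tested genes of that list, 10 had a log2 fold change above 0 and 4 below, with a median of 0.07 against -0.06 for all genes, 0 passed the adjusted test, and 1 was higher at an unadjusted p under 0.05, against 2.63% of all genes. That gene was Il3ra, the interleukin-3 receptor alpha chain, with 16.4, 21.1 and 39.1 TPM (lowest, median, highest) in the high group and 1.75, 10.5 and 24.7 TPM in the low group (log2 fold change 1.02, limma p = 0.0146, adjusted p = 0.777). Siglec5, the symbol under which the eosinophil lectin Siglec-F is listed, had a median of 9.93 TPM in the high group and 11.97 TPM in the low group, and its log2 fold change was 0.01 (SE 0.40). Il5ra, the interleukin-5 receptor alpha chain that drives eosinophil growth, had 0.0677, 0.297 and 1.16 TPM in the high group, against 0.0480, 0.0693 and 0.266 TPM in the low group. Ccr3, the eotaxin receptor, ran from 0 to 0.607 TPM in the high group and from 0 to 0.745 TPM in the low group. Both receptors stayed below the filter.

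Transcription factors of the lineage gave a similar picture. Gata1 had a median of 0.373 TPM (highest 3.12) in the high group and 0.0520 TPM (highest 0.385) in the low group, below the filter. Gata2, which precedes Gata1 in progenitors and stays on in mast cells, had 0.339, 0.852 and 14.6 TPM in the high group, against 0.0253, 0.229 and 2.68 TPM in the low group (log2 fold change 0.86, SE 0.48, limma p = 0.0925, adjusted p = 0.777). Cebpe, a factor of late granulocyte maturation, had a log2 fold change of 0.11 (SE 0.64). Xbp1, the secretory pathway factor that eosinophil precursors need, had one of -0.31 (SE 0.25). In each of these genes the groups overlapped.

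Prg2 and Prg3 are neighbours on mouse chromosome 2, with Prg2 at chr2:84980461-84983632 and Prg3 at chr2:84988215-84993886, both on the plus strand (mm10 coordinates from GENCODE M21). The other tested genes around them overlapped between the groups, and none passed the test. Slc43a3, a nucleobase transporter and the nearest gene before Prg2, averaged 25.2 ± 12.1 TPM in the high group and 21.7 ± 17.02 TPM in the low group (SD, n = 8 each). Its log2 fold change was 0.59 (limma p = 0.224, adjusted p = 0.777). Ssrp1, a histone chaperone subunit beyond Prg3, had a log2 fold change of 0.50 (limma p = 0.0760) and Timm10, a mitochondrial import chaperone, one of 0.53 (limma p = 0.118), both with an adjusted p of 0.777. P2rx3, which lies directly after Prg3, averaged 0.424 TPM in the high group and 0.531 TPM in the low group, below the filter. Slc43a1, Rtn4rl2, Smtnl1, Tnks1bp1 and Aplnr were below it too.

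Genes of mast cells and basophils were often higher in the high Prg2 libraries, without passing the adjusted test. Of 15 tested genes of that list, 12 had a log2 fold change above 0 and 3 below, the median was 1.08 against -0.06 for all genes, and 7 were higher at an unadjusted p under 0.05 with 0 lower, against 2.63% and 1.61% of all genes. The adjusted p was 0.777 for each of them (limma). Their list names a cell type that was not labelled in these cultures, and Fcer1a, the high-affinity IgE receptor alpha chain that defines those cells, stayed at or below 0.609 TPM in the 16 libraries. The summed level of the list ran from 768 over a median of 1298 to 4379 TPM in the high group, against 502, 1347 and 1736 TPM in the low group, so the sums overlapped.

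Granule proteases made up most of those 7 genes. Mcpt8, the mast cell protease of basophils, had 11.6, 36.1 and 1530 TPM (lowest, median, highest) in the high group and 0.127, 5.70 and 29.0 TPM in the low group (log2 fold change 3.27, SE 0.94, limma p = 0.00289). Its highest value came from clone 19, and the groups overlapped within clones 1 to 13 but not within clones 15 to 26. Prss34, a serine protease of basophils and mast cells, had 7.48, 30.3 and 166 TPM in the high group, against 0, 4.76 and 22.8 TPM in the low group (log2 fold change 2.66, SE 0.75, limma p = 0.00274). Tpsb2, a mast cell tryptase, had 7.496, 19.3 and 453 TPM in the high group, against 0, 2.44 and 44.9 TPM in the low group (log2 fold change 2.81, limma p = 0.00690). Clones 19, 11 and 24 were the highest of the high libraries for Mcpt8 and Tpsb2, and clones 19, 24 and 18 for Prss34.

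The other 4 genes of the 7 overlapped between the groups too. Cpa3 had 16.6, 29.1 and 353 TPM in the high group, against 0.0630, 8.13 and 57.4 TPM in the low group (log2 fold change 2.38, limma p = 0.0129), and the log2 fold changes of the chymases Cma1 and Mcpt4 were 3.001 and 2.13. Ms4a2, the beta chain of the IgE receptor, had 0.668, 2.90 and 15.1 TPM in the high group and 0.0981, 0.639 and 2.56 TPM in the low group (log2 fold change 1.22, limma p = 0.00822). These reads may in part belong to other genes, since Cma1 shared 10.6% of its words of 31 bases with Gm48934 and Ms4a2 shared 4.03% with other genes, mostly Ms4a4b, while Tpsb2 shared 0.557% and Mcpt8, Prss34 and Cpa3 shared 0. Hdc, the histamine-forming enzyme, went the other way with a median of 32.7 TPM in the high group and 65.4 TPM in the low group (log2 fold change -0.84, limma p = 0.178), and Kit, the stem cell factor receptor, had a log2 fold change of 0.46. With clones 1 to 13 alone, 0 of the 15 genes were higher at an unadjusted p under 0.05, against 395 of 10585 genes. There 1 was lower (Hdc) and the median was 0.41. With clones 15 to 26 alone the count was 6, against 90 of 10833 genes, and the median 1.74. Without clones 19 and 20, the libraries with the highest and the lowest Mcpt8, 5 genes of the list were higher at that level. Over all genes 205 of 10785 were, and the list median was 0.64.

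**Figure D4:**
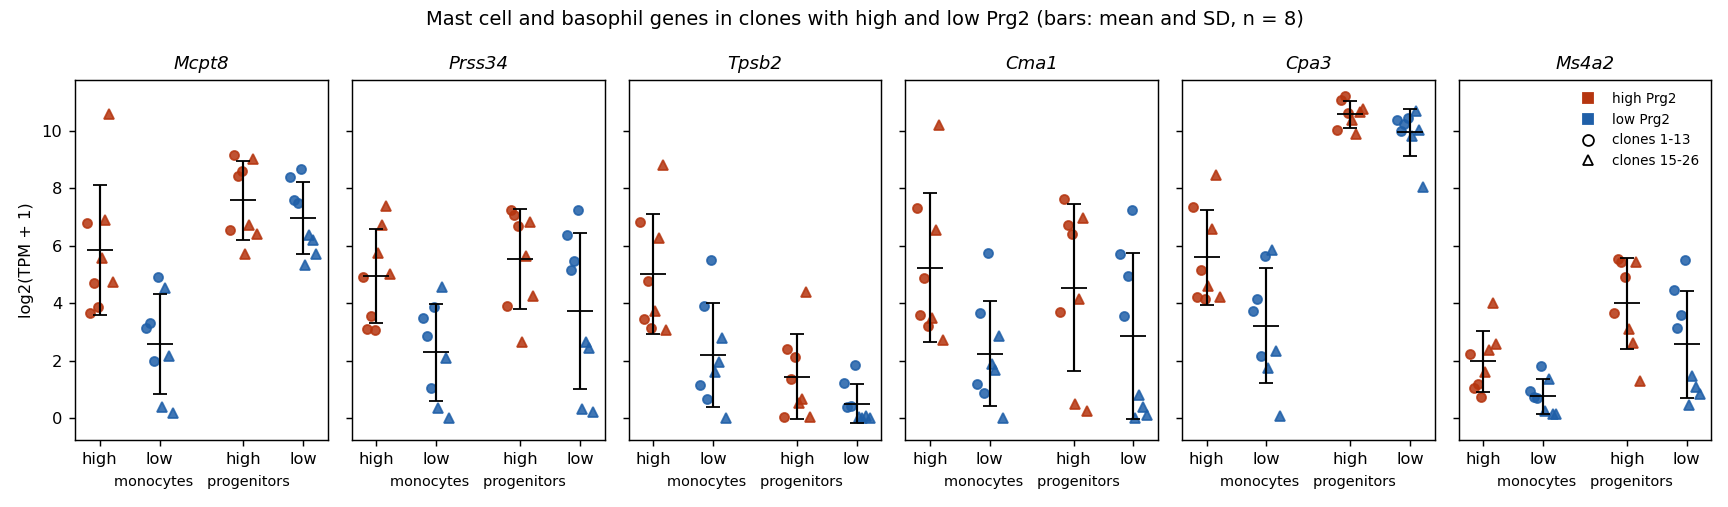
Levels of 6 mast cell and basophil genes as log2(TPM + 1) in monocyte and progenitor libraries of the 8 high and 8 low Prg2 clones, circles for clones 1 to 13, triangles for clones 15 to 26, bars for mean and SD. In monocytes clone 19 is the top triangle of Mcpt8 (1530 TPM), and for Prss34, Mcpt8 and Tpsb2 the triangles of the high group all lie above those of the low group.

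Primary granule genes, which neutrophil and monocyte precursors switch on early, leaned to the same side. Of 12 tested, 11 had a log2 fold change above 0, against 43.0% of all genes, with a median of 0.99, and 2 were higher at an unadjusted p under 0.05, against 2.63% of all genes. These were Prtn3, proteinase 3, with 446, 669 and 1829 TPM in the high group and 15.9, 229 and 2141 TPM in the low group (log2 fold change 1.94, limma p = 0.0348, adjusted p = 0.777), and Elane, neutrophil elastase, with 148, 317 and 984 TPM in the high group and 2.91, 116 and 652 TPM in the low group (log2 fold change 2.01, limma p = 0.0483). The low libraries were split: clones 15 and 20 held 2.91 and 4.27 TPM of Elane and clone 22 held 652 TPM. Without clones 19 and 20, 0 of the 12 were higher at that level, against 205 of 10785 genes, and the median was 0.59.

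In the main fit mature granulocyte and monocyte genes gave list medians closer to 0. Over all genes 43.0% had a log2 fold change above 0, with a median of -0.06. Of 28 secondary granule and neutrophil genes, 16 had a log2 fold change above 0 and 12 below, with a median of 0.10. Without clone 22 the count above 0 was 5 with a median of -0.35, and without clone 23 it was 6 with a median of -0.30. Without clone 20 it was 23 with a median of 0.51. The balance of this list thus moved with single low libraries. Ltf, lactoferrin, reached 24528 TPM in the high group and 36121 TPM in the low group, with log2 fold change 0.23 (SE 1.60), so neutrophil granule transcripts were abundant in libraries of either group although the label names monocytes. Of 20 classical monocyte genes 15 had a log2 fold change above 0, with a median of 0.16. In clones 1 to 13 alone 6 of the 20 were higher at an unadjusted p under 0.05, against 395 of 10585 genes. The median there was 0.59, against 0.015 for all genes. In clones 15 to 26 alone 0 of the 20 were, against 90 of 10833 genes, and the median was -0.41, against -0.14 for all genes. Ly6c2, the surface antigen of classical monocytes, had a median of 1248 TPM in the high group and 1437 TPM in the low group, and Csf1r, the receptor of macrophage colony-stimulating factor, 67.1 TPM in the high group and 74.3 TPM in the low group. Of 18 macrophage genes 1 was higher at an unadjusted p under 0.05, against 2.63% of all genes. That gene was Mrc1, the mannose receptor (log2 fold change 1.55, limma p = 0.0394, adjusted p = 0.777). Interferon response genes had 13 of 19 below 0, against 6153 of 10787 genes, and 0 at an unadjusted p under 0.05. Their summed level was 8693 TPM in the low library of clone 15, and clone 23, the next highest low library, held 621 TPM. The median sum was 328 TPM in the high group and 225 TPM in the low group.

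All 22 cell cycle genes had a log2 fold change above 0, against 43.0% of all genes, with a median of 0.71. Of these 8 were higher at an unadjusted p under 0.05, against 2.63% of all genes, with 0 passing the adjusted test. Top2a, topoisomerase II alpha, had 61.0, 75.7 and 108 TPM in the high group and 9.38, 49.5 and 90.6 TPM in the low group (log2 fold change 0.91, limma p = 0.0274, adjusted p = 0.777). Mki67, the proliferation antigen, had a log2 fold change of 0.70 and Tyms, thymidylate synthase, one of 1.12. The count was 0 with the mitochondrial share as covariate (107 of 10787 over all genes). It was 0 with clones 1 to 13 alone (395 of 10585) and 1 without clone 15 (175 of 10727). It was 2 without clone 1 (190 of 10756) and 2 without clone 20 (148 of 10775). Without clones 19 and 20 together it was 0 (205 of 10785), and without clone 22 it was 18 (768 of 10763). The count thus moved with single low libraries, and so did the number over all genes, 284 of 10787 in the main fit. Hoxb8 and Esr1, whose reads include those of the transgene parts, had log2 fold changes of 0.80 (limma p = 0.0103) and 0.64 (limma p = 0.0238). Hoxb8 had 151, 222 and 554 TPM in the high group, against 79.2, 155 and 293 TPM in the low group. How the cell cycle and transgene levels bear on Prg2 was not tested.

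**Figure D5:**
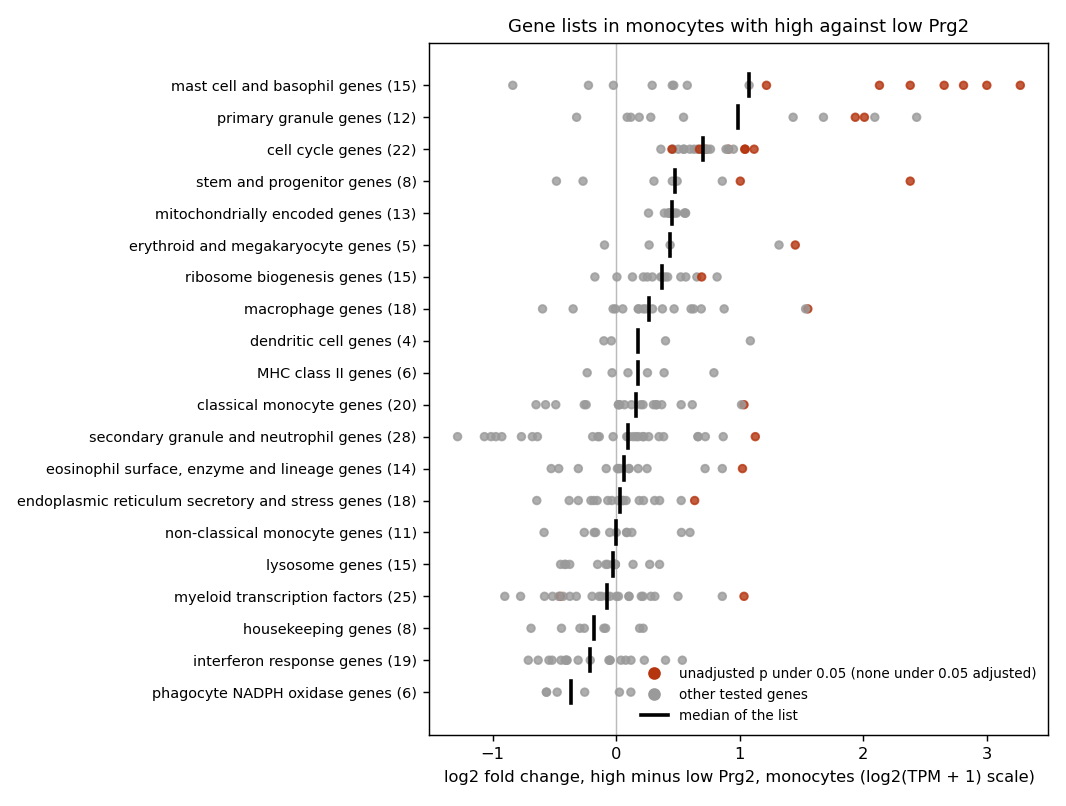
Log2 fold change of high against low Prg2 monocytes (log2(TPM + 1) scale) for the tested genes of each list with at least 4 tested genes, the number tested in brackets, 1 point per gene, black bars for list medians. Mast cell and basophil genes (median 1.08), primary granule genes (0.99) and cell cycle genes (0.71) lie farthest to the right, and no point passes the adjusted test.

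The genes next in the order of p-values were from no single group. Of those higher in the high group, Gpr183, an oxysterol receptor that guides immune cell migration, had 0.498, 2.18 and 2.93 TPM in the high group and 0.183, 0.534 and 1.26 TPM in the low group (log2 fold change 0.81, limma p = 0.00130). Mvk, mevalonate kinase of the cholesterol pathway, had 7.05, 9.51 and 15.8 TPM in the high group and 2.31, 5.03 and 7.95 TPM in the low group (log2 fold change 0.85). Med27, a Mediator subunit, Rapsn, a receptor-clustering protein of the neuromuscular junction, and Rpl10-ps1, a ribosomal protein pseudogene whose reads may belong to its parent gene, had log2 fold changes of 0.50, 0.79 and 4.39. Gpr183 reached a mean of 1 TPM only through the high group, which limits what its p-value can show. None of these genes passed, with an adjusted p of 0.777 for each (limma).

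Those lower in the high group were spread as widely. Stard7, a phosphatidylcholine carrier of mitochondria, had 7.504, 17.0003 and 30.4 TPM in the high group and 14.3, 33.1 and 80.3 TPM in the low group (log2 fold change -1.04, limma p = 0.00308). Zeb1, a zinc-finger repressor, had 0.418, 0.664 and 13.8 TPM in the high group and 1.27, 8.89 and 16.4 TPM in the low group (log2 fold change -1.64, limma p = 0.00791). Notch4, a Notch receptor of vascular cells, had a log2 fold change of -1.10, Rapgef6, an activator of Rap GTPases, one of -0.92, Prpf39, a splicing factor, one of -0.99 and Gtpbp2, a ribosome rescue GTPase, one of -0.78. S100pbp, Wdr13, Rps12-ps10 and AC137902.1 had values of -0.72, -0.72, -0.78 and -2.85. AC137902.1 was listed at 0 in every high library but clone 11, so it reached a mean of 1 TPM only through the low group. The groups overlapped for each of the genes lower in the high group named here, and the adjusted p was 0.777 throughout (limma).

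Progenitors of the same clones bear on whether the split was present before the monocyte state. Prg2 had 0.0399, 0.201 and 13.03 TPM (lowest, median, highest) in progenitors of the high clones, against 0.0159, 0.795 and 5.09 TPM in progenitors of the low clones. The values overlapped throughout, and clone 20, the lowest monocyte library, held 1.92 TPM as progenitor. The log2 fold change of Prg2 was 0.07 (SE 0.56, 95% interval -1.10 to 1.25, limma p = 0.896, adjusted p = 0.960), and its sign turned under several alternatives. Over 10684 genes limma called 0 higher (0.0%) and 0 lower (0.0%), with 42 higher (0.393%) and 93 lower (0.87%) at an unadjusted p under 0.05. The median of all genes was -0.17. Without progenitor clone 24 that median was 0.015, with 119 of 10741 genes higher and 53 lower at that level, so the lean to the lower side rested on 1 library.

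In progenitors 3 of 15 tested mast cell and basophil genes were higher at an unadjusted p under 0.05, with a median of 0.63, against 0.393% of all genes. Prss34 had 5.22, 75.6 and 150 TPM in progenitors of the high clones, against 0.149, 19.9 and 153 TPM in those of the low clones (log2 fold change 1.80, limma p = 0.0240). Ms4a2 had a log2 fold change of 1.44 (limma p = 0.0118) and Cpa3 one of 0.63 (limma p = 0.0396). Without clones 19 and 20 the count was 1 of 14, against 25 of 10602 genes, and the median 0.28. Secondary granule and neutrophil genes lay on the lower side, with 6 of 22 lower at an unadjusted p under 0.05, against 0.87% of all genes. Among them was Mmp8, neutrophil collagenase, at -1.30 (limma p = 0.00266). The list median was -1.30, against -0.17 for all genes. Without clone 24 it was -1.24, against 0.015 for all genes, and 2 of 22 were lower, against 53 of 10741 genes. Progenitor clone 20 held a summed 15373 TPM of the list, and clone 1, the next highest of the low clones, 1589 TPM. Without clones 19 and 20, 2 of 16 were lower, against 39 of 10602 genes. No adjusted test passed for these genes.

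The difference between the states adds little to the monocyte contrast. Prg3 lay between 0.0438 and 3.49 TPM in progenitors of the high clones and between 0.0914 and 1.62 TPM in those of the low clones, and Epx at or below 0.134 TPM in the high and 0.0253 TPM in the low clones. At such levels the progenitor contrast of Epx on the log2(TPM + 1) scale is close to 0, and the groups were chosen on monocyte Prg2, so a test of the difference largely restates the monocyte values. In limma with clone as a block over 11040 genes it was called higher for 2 genes (0.0181%) and lower for 0 (0.0%), with 283 (2.56%) in either direction at an unadjusted p under 0.05. These were Prg3, at 3.05 on the log2 scale (SE 0.48, adjusted p = 0.0463), and Epx, at 2.31 (SE 0.38, adjusted p = 0.0463). With a pseudocount of 0.1 the count was 0, and without the block 1 gene, Epx, was called, at an adjusted p of 0.0220. With 1 clone left out both genes passed without clones 7 and 12, Prg3 alone passed without clones 9, 20 and 22, and neither passed without any 1 of clones 1, 3, 6, 10, 11, 15, 17, 18, 19, 23 and 24.

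The high-low difference was larger in clones 15 to 26 than in clones 1 to 13 by value for both granule genes, at 4.15 against 2.28 log2 units for Prg3 and 3.30 against 1.38 for Epx, but 0 of 10787 genes (0.0%) passed limma's test of the difference between the sets, with 179 (1.66%) at an unadjusted p under 0.05. The Prg2 difference that defined the groups was also larger there, at 5.35 against 2.80 log2 units. Genes whose groups did not overlap within clones 1 to 13 numbered 377 higher (3.49%) and 80 lower (0.742%), and within clones 15 to 26 they numbered 73 (0.677%) and 34 (0.315%). The sets are number ranges of the clones, and the labels name no batch.

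Mitochondrial transcripts took 3.95, 8.07 and 19.2% of TPM (lowest, median, highest) in the high group and 1.98, 5.90 and 15.4% in the low group, a difference with an exact permutation p of 0.217 within sets (two-sided). In clones 15 to 26 alone the medians were 13.3% in the high and 8.52% in the low group. With that share as a covariate Prg3 was called (limma, adjusted p = 0.0479) and Epx was not (adjusted p = 0.206). Under it 6 of 15 mast cell and basophil genes were higher at an unadjusted p under 0.05, with a median of 0.74. Of 12 primary granule genes 0 were, of 22 cell cycle genes 0, and over all genes 107 of 10787. Genes at 1 TPM or more numbered 9448 to 10550 in the high group and 9759 to 10689 in the low group. TPM keep no depth, so the depth of the libraries is unknown and no counting error can be given.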

How the data were processed

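The authors deposited TPM as a single table, whose 34643 rows are gene symbols and whose 48 columns are samples. The submitters' processing notes name Salmon and the build mm10. Of the annotation release and the summing of transcripts, the sources used here say nothing. TPM are relative values without depth, and a value of exactly 0 can come from a failed estimate. Rows named as calendar dates (26) were left out.

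Libraries were grouped as monocyte or progenitor by their source labels and by clone number in the titles. Values were log2(TPM + 1). Genes with a mean of at least 1 TPM in the libraries fitted entered limma (version 3.58.1, R 4.3.3, mean-variance trend, two-sided, set of clones as covariate), with Benjamini-Hochberg adjustment at 0.05. The fits were tested on simulated data. The members, gene lists and tests were chosen with earlier results of these data known. The lists held 2 genes, Rnase3 and Clc, not used here.

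The rule for named genes took Prg2 and the eosinophil granule genes, the 10 genes per direction with the largest change among those that passed, filled where fewer passed by the smallest p, up to 2 passing genes of each other list, passing genes of the other fits and the 5 neighbours of Prg2 on each side. Genes without a function in their name (Gm, Rik), mitochondrial genes and dates were not named. Further list genes in the text were chosen after their values were seen.

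The 2 states of a clone are matched by the series design text. Deviations from the means of group and set correlated above 0.1 across genes in 8 of 16 clones (lowest -0.17, highest 0.35), so the pairing rests on the design text. The sets differed in this. Among clones 1 to 13 clone 1 alone lay above 0.1, at 0.21, and among clones 15 to 26 clone 24 alone lay below it, at 0.091. Alternatives were other pseudocounts, filters and scalings, other group definitions, covariates and single libraries left out. Leaving out clones 19 and 20 together was chosen after seeing the data. Promoters came from the RefSeq table of GRCm38.p6. Other tools were matplotlib 3.10.9, scipy 1.17.1, pandas 2.3.3 and Python 3.11.15 with numpy 2.4.6.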

Additional observations from a re-analysis of the deposited data

Results flagged for a closer look

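Of 42 groups of 8 libraries, for 21 genes, 8 held a library whose distance to its nearest neighbour was large for the range of the group. The limit is meant to flag about 1 in 20 groups by chance. These groups share libraries, their genes were partly chosen by their values and some hold zeros, so that rate may not apply here. In the high Prg2 group clone 19 stood apart for Mcpt8 at 1530 TPM, for Mvk at 15.8 TPM and for Rnase12 at 14.9 TPM, clone 17 for Rpl10-ps1 at 9.58 TPM and clone 11 for AC137902.1 at 3.13 TPM, where the other 7 libraries were listed at 0. In the low Prg2 group clone 20 stood apart for Prg2 itself at 0.249 TPM, clone 22 for Med27 at 6.78 TPM and clone 23 for Rapgef6 at 2.47 TPM.

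The high-low difference itself differed between monocytes and progenitors of the same clones for Prg3, by 3.05 on the log2 scale, and for Epx, by 2.31 (limma with clone as block, adjusted p = 0.0463 for both). The groups were chosen on monocyte Prg2 and Epx was at or below 0.134 TPM in the 16 progenitor libraries, so this difference was largely fixed by the choice and is no support of its own. The range of adjusted p over the alternatives was 0.0247 to 0.999 for Prg3 and 0.0220 to 0.540 for Epx.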

How the results depend on the processing

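Against 0 genes called higher in high Prg2 monocytes, limma called 1 with a mean of at least 5 TPM (Prg3), 2 after rescaling without mitochondrial, Gm and pseudogene entries (Prg3 and Epx), 1 in clones 15 to 26 alone, 2 with Prg2 as a number, 2 with clones 8 and 26 ranked too, 1 with the mitochondrial share as covariate, and 0 to 2 with single libraries left out. Lower calls were 3 in clones 15 to 26 alone and 2 with Prg2 as a number, against 0. The adjusted p ranged from 7.56e-10 to 0.562 for Prg3 and from 0.000238 to 0.938 for Epx, and both fold changes kept their sign. In progenitors 0 genes were called under every alternative run, and Prg2 changed sign to -0.14 with a pseudocount of 0.1, to -0.24 without clones 19 and 20, and without clone 18, 19, 22 or 23, with a range of -0.30 to 0.38 over single clones left out. The difference between states, with 2 calls under the replicate block, had 1 with no replicate block, with a pseudocount of 5, after rescaling and without clones 19 and 20, 0 with a pseudocount of 0.1, with no filter and with a mean of at least 5 TPM, and 0 to 2 with single clones left out. The difference between sets, with 0 calls, had 1 lower with a pseudocount of 0.1 and 1 higher with no filter. Rescaling moved mean Prg2 to 993 TPM in the high group and 60.2 TPM in the low group, against 584 and 38.6 TPM. The cause of these moves was not tested. Over all values for single genes, those above included, 742 kept direction and side of the threshold, 16 passed it newly (8 for Prg3 and 6 for Epx in monocytes), 34 no longer passed (16 for Prg3 and 18 for Epx between states) and 6 turned (Prg2 in progenitors). TPM without depth limit what can be said of genes below 1 TPM.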

Other observations

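Monocyte clone 20 held 0.249 TPM of Prg2 and was listed at 0 for Prg3, Epx, Prss34, Tpsb2 and Cma1, and clone 26, which was not ranked, held 1.38 TPM of Prg2 and was listed at 0 for Prss34 and Cma1. Clone 22, a low Prg2 library, held 4796 TPM of Mpo, the myeloperoxidase gene, the highest of the 24 monocyte libraries, beside 35.9 TPM of Prg2. Clone 5, between the groups with 78.7 TPM of Prg2, held 289 TPM of Tpsb2 and 282 TPM of Cma1. Progenitor clone 24, whose monocyte library was second in Prg2 in its set at 907 TPM, held 0.227 TPM of Prg2.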
